A study of Mus musculus with 6 samples.

Results

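Desmosome, adherens junction and Xin genes were examined in atrial cardiomyocyte nuclei of mice that carry the Prrx1(R1A) allele on both chromosomes and of control mice. The members were fixed by name as the 10 genes Dsp, Pkp2, Jup, Dsg2, Dsc2, Cdh2, Ctnna1, Ctnna3, Xirp1 and Xirp2, and all 10 were found among the 26332 genes with values. Prrx1 encodes a homeobox transcription factor of mesenchymal cells, the title of the series names a noncoding region that controls it, and R1A is the name that the labels give to the altered allele without describing it further. There were 3 Prrx1(R1A)-/- animals and 3 control animals aged 8 to 12 weeks, with 1 library each. In every animal the left and right atria were pooled, nuclei were stained for PCM1, a protein that gathers around cardiomyocyte nuclei, and RNA of the sorted nuclei was sequenced. The labels state neither the sex nor the strain, and they describe the reference animals only as control. The column headers of the deposited values give these animals as wt.

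Cardiomyocytes are joined end to end at the intercalated disc. Desmosomes there tie the intermediate filament desmin of neighbouring cells together: the cadherins desmoglein and desmocollin span the membrane, plakoglobin and plakophilin bind their tails, and desmoplakin links these to the filaments. Adherens junctions anchor actin through N-cadherin, the beta- and alpha-catenins and the Xin proteins, and in the mature mammalian heart both kinds of junction mix in one structure, the area composita. Variants in desmosomal genes are a known cause of arrhythmogenic cardiomyopathy in humans.

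The 250 bases upstream of the annotated start are shown for Xirp2, whose level varied most among the members, and for Dsp, the desmosomal gene whose groups did not overlap. Both are on the plus strand of GRCm38.p6 and come from RefSeq. The promoter windows kept for the search held 4 of the 10 members (Dsp, Jup, Ctnna3 and Xirp2). Some windows were left out before the search, so a member missing here may still have a start in RefSeq. Capitals mark a match to the binding motif of MEF2 factors, which activate muscle genes, searched as CTA and TAG with any 4 bases between.
Xirp2, chr2:67445752-67446001: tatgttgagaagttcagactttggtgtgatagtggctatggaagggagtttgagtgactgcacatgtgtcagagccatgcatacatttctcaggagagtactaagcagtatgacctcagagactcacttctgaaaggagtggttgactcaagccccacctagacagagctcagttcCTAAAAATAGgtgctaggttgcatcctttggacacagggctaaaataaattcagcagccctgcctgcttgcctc
Dsp, chr13:38151044-38151293: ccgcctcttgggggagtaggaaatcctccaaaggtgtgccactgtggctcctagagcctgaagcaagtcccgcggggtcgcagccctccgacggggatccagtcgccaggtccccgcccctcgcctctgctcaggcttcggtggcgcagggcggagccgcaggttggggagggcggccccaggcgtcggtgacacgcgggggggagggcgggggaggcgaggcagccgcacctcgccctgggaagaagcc
The match in Xirp2 lay from 74 to 65 bases before the start, and 3.20% of the 32851 promoter windows kept held one on either strand. On both strands, AGATAA, bound by GATA factors, was in 9.99% of windows, and GGAATG, bound by TEAD factors, in 12.6%. The homeodomain motif TAATTA was in 4.84% and the E-box CANNTG in 66.2%. Xirp2 had a pair of overlapping E-boxes and no match to the other 3, and the Dsp window held none of the 5 motifs. The Dsp window was 72.4% G or C with 22 CG pairs and the Xirp2 window 46.8% with 0, against a median of 52.4% G or C over the windows kept. A match is a string of letters and not a bound site.

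The libraries held 10580961 to 14658584 reads counted in genes. Ribosomal RNA took 26.7%, 28.9% and 39.8% of reads in Prrx1(R1A)-/- replicates 1, 2 and 3, against 46.5%, 12.0% and 17.9% in control replicates 1, 2 and 3. Control replicate 1 stood apart from the others: its correlation with them across genes was 0.890 to 0.908, while control replicates 2 and 3 reached 0.958 with each other. Prrx1 had 200.8, 194.4 and 182.9 normalized read counts in the Prrx1(R1A)-/- libraries against 415.2, 334.8 and 282.1 in the controls, where the last value is the single one of the table that is not a whole number of reads. The 15 cardiomyocyte markers were all measured, and were led by titin (Ttn) and the myosin heavy chain gene Myh6. Their summed level was 820109 to 1518388 normalized counts in Prrx1(R1A)-/- nuclei and 307918 to 589944 in controls. Markers of other cells were present in every library, and none of them was at 0 in all 6. The sums, Prrx1(R1A)-/- first, were 35184 to 39510 against 49099 to 81216 for 12 fibroblast markers (led by Gsn and Col3a1), 7698 to 10797 against 8789 to 19674 for 12 immune markers (Cd74, Lyz2) and 25101 to 31820 against 30135 to 32795 for 11 endothelial markers (Vwf, Npr3). They were 2897 to 3856 against 2366 to 4540 for 9 smooth muscle and pericyte markers (Pdgfrb, Notch3), 8892 to 13161 against 8053 to 14430 for 10 epicardial and mesothelial markers (Upk3b, Msln), 3502 to 7150 against 1139 to 3334 for 6 adipocyte markers (Plin4, Fabp4) and 884 to 1028 against 1314 to 2129 for 8 Schwann cell and neuron markers (Scn7a, Cdh19). Plin4 made up most of the adipocyte sum and Scn7a most of the Schwann cell and neuron sum. The log2 fold change, Prrx1(R1A)-/- over control, was 1.49 for Plin4 but −0.93 for Fabp4. Of the adipocyte markers tested, 2 lay above 0 and 2 below. Of the Schwann cell and neuron markers tested, 3 lay above 0 and 2 below. Of the 15 cardiomyocyte markers 14 lay above 0 and 1 below, while all 12 fibroblast and all 12 immune markers lay below. The counts above and below 0 were 2 and 8 for endothelial, 4 and 5 for smooth muscle and pericyte, and 4 and 6 for epicardial and mesothelial markers. Control replicate 1 had the lowest cardiomyocyte and adipocyte sums of the 6 libraries. It had the highest fibroblast, immune, smooth muscle and pericyte, and epicardial and mesothelial sums. Their part in the results on the junction genes was not tested.

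All 10 members had a log2 fold change above 0, Prrx1(R1A)-/- over control, as did 49.7% of all genes, but none passed the test over all genes. The log2 fold changes ranged from 0.14 for Jup to 1.63 for Xirp2 with a median of 0.65, against a median of −0.0036 over the 14584 genes tested. Without control replicate 1 the members' median was 0.42. By limma, 0 of the 10 were called at an adjusted p under 0.05, where 0.0137% of all genes were called higher, and edgeR called 0 as well (0.0% of all genes). At an unadjusted p under 0.05 limma had 4 members (Dsp, Ctnna3, Xirp1 and Xirp2), all higher, against 6.67% of all genes higher and 5.25% lower at that level, and edgeR had the same 4. DESeq2 called 2 members, Dsp and Xirp1, against 1.09% of all genes called higher, and limma with library quality weights called the same 2, against 6.51% of all genes called higher and 3.92% lower. All members passed the filter on low values, and the fewest reads behind any value were 72, for Ctnna3 in control replicate 1 (exact 95% Poisson interval 56.3 to 90.7 reads, which covers counting error only). In such bulk samples a larger share of cardiomyocyte nuclei and more RNA of a gene per nucleus cannot be told apart, nor can a smaller share and less RNA.

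**Figure D1:**
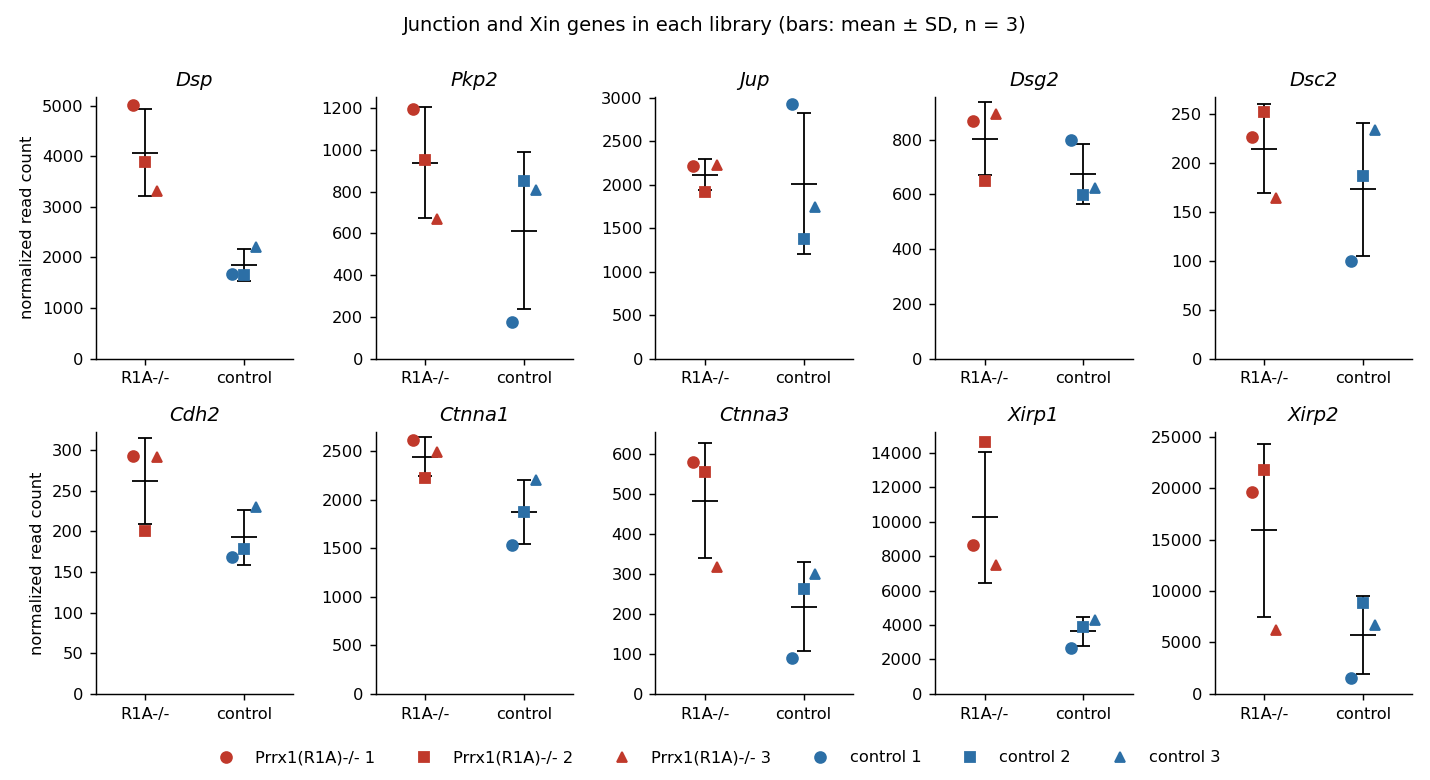
Normalized read counts (vertical axes, from 0) of the 10 genes in each of the 3 Prrx1(R1A)-/- libraries (red) and the 3 control libraries (blue), with the mean and SD of each group in black. The groups are apart for Dsp, Ctnna1, Ctnna3 and Xirp1, and control 1 (blue circle) is the lowest library for 7 of the 10 genes and the highest for Jup.

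Desmoplakin (Dsp, identifier 109620; chromosome 13, 38151294 to 38198577, plus strand, GRCm38), which anchors desmin to the desmosome, had 5002, 3878 and 3314 normalized counts in Prrx1(R1A)-/- replicates 1, 2 and 3, against 1668, 1645 and 2206 in control replicates 1, 2 and 3. Every Prrx1(R1A)-/- library lay above every control, and control replicate 1 lay between the other controls. The means were 4065 ± 859 and 1840 ± 317 (SD, n = 3 each), a log2 fold change of 1.14 ± 0.23 (SE), with a 95% interval of 0.64 to 1.63 and an adjusted p of 0.0963 by limma. Without control replicate 1 it was 1.07 ± 0.20 and passed (adjusted p = 0.0081 by limma), where 6.1% of all genes were called higher and 3.06% lower. Without any 1 other library it did not pass. Its exons share 499 bases with the opposite-strand gene Gm10129, and the library kit does not mark strand.

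Plakophilin 2 (Pkp2, identifier 67451; chromosome 16, 16213318 to 16272712, plus strand), the armadillo protein that gathers desmoplakin at the junction, had 1199, 950.3 and 668 normalized counts in Prrx1(R1A)-/- nuclei, against 177, 853 and 809.8 in controls. The groups overlapped, since Prrx1(R1A)-/- replicate 3 lay below control replicates 2 and 3, and control replicate 1 was 4.69-fold lower than the mean of the other controls. The log2 fold change of 0.88 ± 0.50 (95% interval −0.22 to 1.97; adjusted p = 0.508 by limma) was 0.14 without that library (−0.35 to 0.62).

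Plakoglobin (Jup, identifier 16480; chromosome 11, 100368958 to 100397763, minus strand), a catenin shared by desmosomes and adherens junctions and also made by endothelial and epithelial cells, showed the opposite order of the controls. It had 2211, 1914 and 2220 normalized counts in Prrx1(R1A)-/- nuclei, against 2924, 1371 and 1738 in controls, so control replicate 1 was the highest of all 6 libraries. The log2 fold change was 0.14 ± 0.27 (−0.44 to 0.73; adjusted p = 0.865 by limma) and 0.45 ± 0.17 without that library (0.09 to 0.81; adjusted p = 0.11). Its sign depended on the scaling and on a ribosomal RNA covariate: it was −0.03 with quantile scaling and −0.19 with the covariate. It was −0.21 after ribosomal and mitochondrial genes were removed, a rescaling that moved the median of all genes to −0.35.

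The desmosomal cadherins did not differ beyond their spread. Desmoglein 2 (Dsg2, identifier 13511; chromosome 18, 20558074 to 20604521, plus strand), the principal desmoglein of heart muscle, had 869.6, 649 and 893 normalized counts in Prrx1(R1A)-/- nuclei, against 799, 598 and 624 in controls (log2 fold change 0.25 ± 0.23, −0.25 to 0.75; adjusted p = 0.685 by limma). After removal of the ribosomal and mitochondrial genes its log2 fold change was −0.10, on a scale where the median of all genes was −0.35. Desmocollin 2 (Dsc2, identifier 13506; chromosome 18, 20030633 to 20059554, minus strand), its partner in the desmosomal contact, had 227, 252 and 164 in Prrx1(R1A)-/- nuclei, against 99.4, 186 and 234 in controls (0.37 ± 0.35, −0.40 to 1.13; adjusted p = 0.702). For both genes the groups overlapped, and without control replicate 1 the Dsc2 value was 0.01 (−0.57 to 0.60). Dsg2 shares 330 exonic bases with the opposite-strand RNA Gm16090.

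Among the adherens junction genes, N-cadherin (Cdh2, identifier 12558; chromosome 18, 16588877 to 16809246, minus strand), the classical cadherin of cardiomyocytes that fibroblasts also make, had 293, 200.4 and 291 normalized counts in Prrx1(R1A)-/- nuclei, against 169, 178 and 231 in controls. One Prrx1(R1A)-/- library lay below the highest control, and the log2 fold change was 0.43 ± 0.28 (−0.17 to 1.04; adjusted p = 0.557 by limma). Alpha-E-catenin (Ctnna1, identifier 12385; chromosome 18, 35118859 to 35254779, plus strand), which links cadherin complexes to actin in most cell types, had 2620, 2231 and 2489 in Prrx1(R1A)-/- nuclei, against 1539, 1880 and 2208 in controls. Its groups did not overlap, by the narrow gap between 2231 and 2208, and the log2 fold change was 0.40 ± 0.21 (−0.06 to 0.85; adjusted p = 0.474 by limma). It was 0.26 without control replicate 1. Without ribosomal and mitochondrial genes it was 0.04, on a scale where the median of all genes was −0.35. Ctnna1 shares 95 exonic bases with the opposite-strand gene Lrrtm2, which had 496, 454 and 356 normalized counts in Prrx1(R1A)-/- nuclei and 218, 434 and 639 in controls.

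Alpha-T-catenin (Ctnna3, identifier 216033; chromosome 10, 63430098 to 65003667, plus strand), the alpha-catenin of the area composita that also binds plakophilin 2, had 579.7, 554 and 317 normalized counts in Prrx1(R1A)-/- nuclei, against 90.6, 264 and 300.3 in controls. The groups did not overlap, but Prrx1(R1A)-/- replicate 3 stood near control replicates 2 and 3, and control replicate 1 was 3.11-fold lower than the mean of these. The log2 fold change was 1.27 ± 0.42 (0.34 to 2.20; adjusted p = 0.302 by limma), and it was 0.73 ± 0.26 without control replicate 1 (0.16 to 1.30; adjusted p = 0.10). Ctnna3 spans 1573570 bases and holds the neuronal gene Lrrtm3 inside an intron on the other strand. Lrrtm3 had 657, 491 and 227 normalized counts in Prrx1(R1A)-/- nuclei and 109.5, 452 and 447 in controls, so it too was lowest in control replicate 1.

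The groups of 4 members, Dsp, Ctnna1, Ctnna3 and Xirp1, did not overlap, with Prrx1(R1A)-/- above control in each, and 8.89% of all tested genes had that order; no member had the reverse order, which 8.36% of all genes had.

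Of the Xin actin-binding repeat genes, Xirp1 (identifier 22437; chromosome 9, 120013755 to 120023598, minus strand), whose protein binds actin and beta-catenin at the intercalated disc, had 8665, 14613 and 7472 normalized counts in Prrx1(R1A)-/- nuclei. The controls had 2656, 3899 and 4322, and the lowest Prrx1(R1A)-/- library was above the highest control. The means were 10249.9 ± 3825 and 3626 ± 866 (SD, n = 3 each), a 2.83-fold difference, with a log2 fold change of 1.47 ± 0.29 (0.84 to 2.09; adjusted p = 0.094 by limma). Without control replicate 1 it was 1.26 ± 0.24 and passed (adjusted p = 0.0086 by limma). Xirp1 lies inside the span of the macrophage receptor gene Cx3cr1 on the same strand with no shared exonic base, and Cx3cr1 had 23.2 to 30.0 normalized counts in Prrx1(R1A)-/- nuclei and 41.5 to 138 in controls.

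Xirp2 (identifier 241431; chromosome 2, 67446002 to 67526614, plus strand), the larger Xin gene, known in mice as a MEF2A target, had 19617, 21810 and 6235 normalized counts in Prrx1(R1A)-/- nuclei, against 1510, 8886 and 6718 in controls. Prrx1(R1A)-/- replicates 1 and 2 were above every control, while Prrx1(R1A)-/- replicate 3 was below control replicates 2 and 3. By limma its log2 fold change was 1.63 ± 0.61, with the widest interval of the 10 genes (0.29 to 2.96; adjusted p = 0.343 by limma), and 0.84 ± 0.40 without control replicate 1 (−0.02 to 1.71). The ratio of means was 2.79 for Xirp2 and 2.83 for Xirp1. Xirp2 shares 168 exonic bases with the opposite-strand RNA Gm13601.

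**Figure D2:**
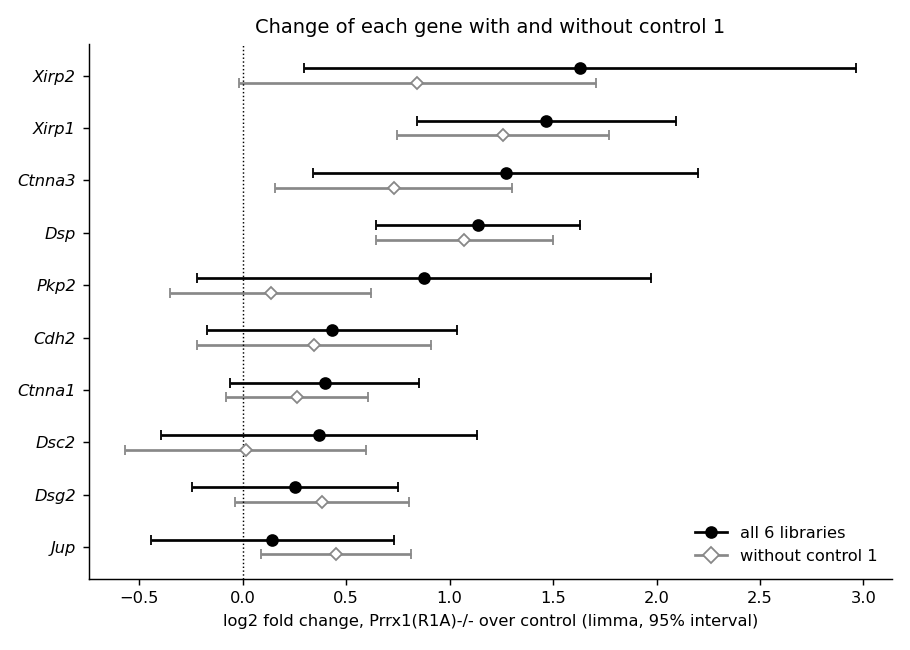
Log2 fold change of each gene, Prrx1(R1A)-/- over control (horizontal axis), with 95% intervals from limma for all 6 libraries (filled circles) and without control 1 (open diamonds). Dsp is at 1.14 and 1.07 and Xirp1 at 1.47 and 1.26, with both intervals above 0, whereas without control 1 Pkp2 is at 0.14 instead of 0.88 and Xirp2 at 0.84 instead of 1.63.

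Within each group the members split by library. Control replicate 1 was the lowest of all 6 libraries for 7 of the 10 members (Pkp2, Dsc2, Cdh2, Ctnna1, Ctnna3, Xirp1 and Xirp2), and Prrx1(R1A)-/- replicate 3 was the lowest of its group for 6 (Dsp, Pkp2, Dsc2, Ctnna3, Xirp1 and Xirp2). These are the libraries with the highest share of ribosomal RNA in their groups, 46.5% and 39.8%. The range within the controls, highest over lowest, was 5.88-fold for Xirp2, 4.81-fold for Pkp2 and 3.31-fold for Ctnna3, against 1.34-fold for Dsp and for Dsg2. With both libraries left out, a comparison of 2 against 2 that was added after the data were seen, limma called Dsp (log2 fold change 1.21), Ctnna3 (1.01), Xirp1 (1.45) and Xirp2 (1.42), against 6.91% of all genes called higher and 3.69% lower. Prrx1(R1A)-/- replicate 3 was the lowest of its group for each of these 4 genes, so leaving it out raises their Prrx1(R1A)-/- mean by construction, and their calls are no independent support. With the log2 level of the ribosomal precursor Rn45s as a covariate limma called the same 4 and Pkp2 (1.68; adjusted p = 0.00081), against 2.32% of all genes called higher. The ribosomal share was not tested as a source of the differences.

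**Figure D3:**
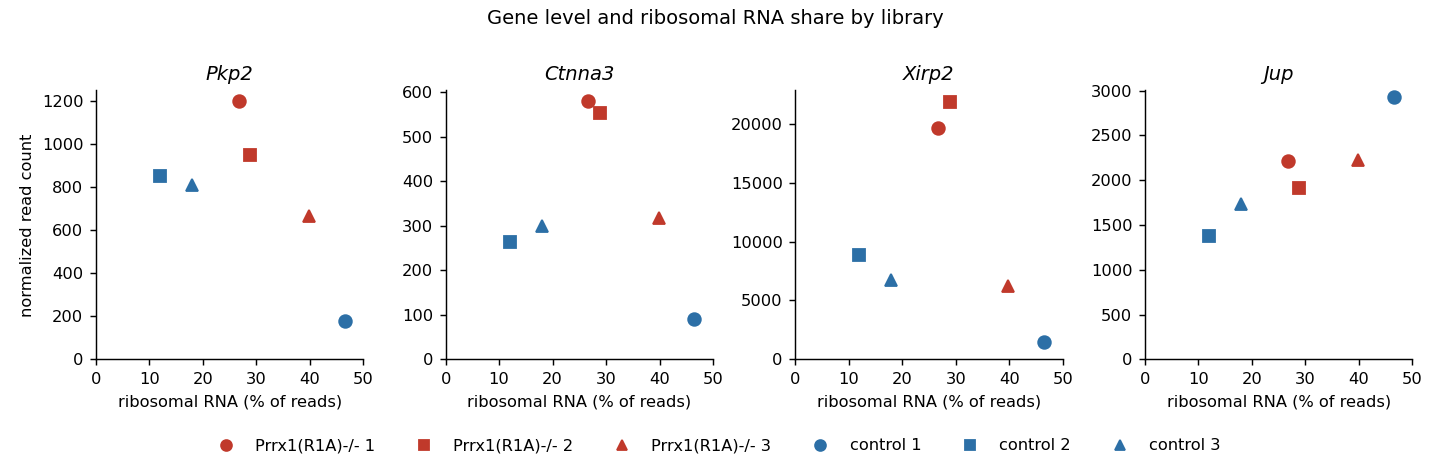
Normalized read counts (vertical axes) of 4 genes, picked after their values were seen, against the percent of reads from ribosomal RNA (horizontal axis), 1 point per library. In controls (blue) Pkp2, Ctnna3 and Xirp2 are lowest at 46.5% ribosomal RNA, where Jup is highest, and in Prrx1(R1A)-/- libraries (red) the same 3 are lowest at 39.8%.

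The members were also set against other cardiomyocyte genes of the same library, as the difference of each log2 level from the mean log2 level of the 15 cardiomyocyte markers. That mean was 12.95, 12.72 and 12.63 in Prrx1(R1A)-/- libraries and 11.27, 11.84 and 12.42 in controls, so the scale takes 0.93 off the log2 fold change of every gene and leaves the order of the members as it was. On this scale Xirp1 had 0.13, 1.11 and 0.23 in Prrx1(R1A)-/- nuclei, against 0.11, 0.09 and −0.35 in controls, a difference of 0.54. The groups were apart by the narrow gap between 0.13 and 0.11, where 0.336% of all tested genes were apart upward on this scale, and the two-sided permutation test was exact and gave 0.1, its lower bound with 3 libraries a group (0.33 after adjustment over the 10 members). With the median of the markers in place of their mean the Xirp1 groups overlapped (0.48, exact permutation p = 0.5), and without Prrx1(R1A)-/- replicate 2 the difference was 0.23. Dsc2 (difference −0.56) and Ctnna1 (−0.53) were below the controls without overlap, as were 44.3% of all tested genes. The differences were 0.70 for Xirp2, 0.34 for Ctnna3 and 0.21 for Dsp on the upper side, and −0.05 for Pkp2, −0.49 for Cdh2, −0.67 for Dsg2 and −0.78 for Jup on the lower side, all with overlapping groups (exact permutation p 0.2 to 0.9). Without control replicate 1 the differences were 0.62 for Xirp1, 0.43 for Dsp, 0.21 for Xirp2, 0.09 for Ctnna3, −0.19 for Jup, −0.26 for Dsg2, −0.29 for Cdh2, −0.38 for Ctnna1, −0.50 for Pkp2 and −0.62 for Dsc2. A ratio of this kind shows unequal change and not which gene changed.

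**Figure D4:**
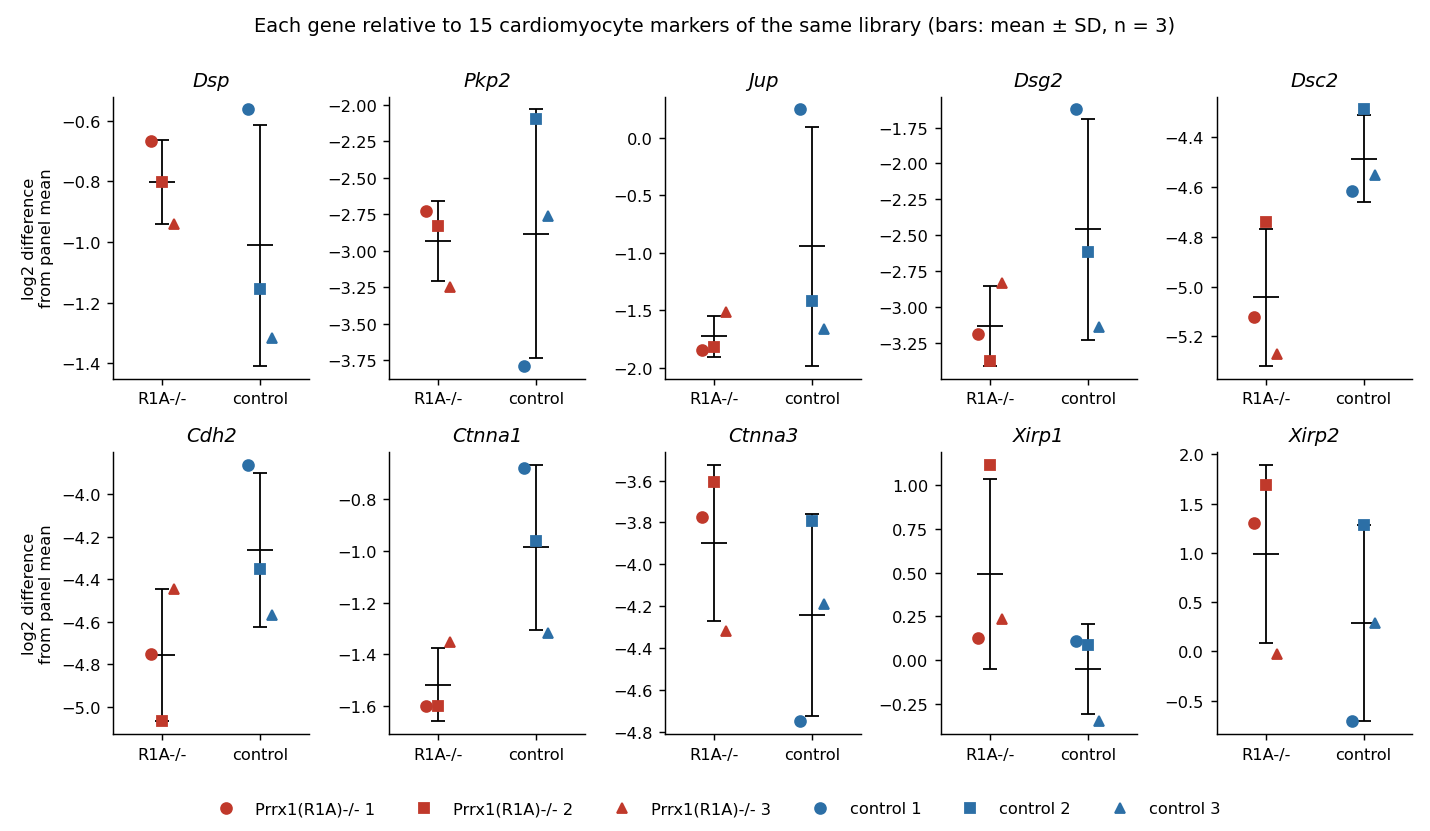
Log2 level of each gene minus the mean log2 level of 15 cardiomyocyte markers in the same library (vertical axes), for Prrx1(R1A)-/- (red) and control libraries (blue) with mean and SD in black. Xirp1 is above the controls by a narrow gap (0.13 against 0.11), and Dsc2 and Ctnna1 are below them without overlap, as are 44.3% of all tested genes.

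Ratios of member pairs, which do not depend on the scaling between libraries, were compared for 6 pairs. Dsp over Jup was 1.18, 1.02 and 0.58 on the log2 scale in Prrx1(R1A)-/- nuclei, against −0.81, 0.26 and 0.34 in controls. The groups did not overlap, and the difference of 0.99 had an exact permutation p of 0.1 (0.60 adjusted over the 6 pairs); without control replicate 1 it was 0.62. Ctnna3 over Ctnna1, the muscle-enriched against the widespread alpha-catenin, was −2.17, −2.01 and −2.97 in Prrx1(R1A)-/- nuclei, against −4.07, −2.83 and −2.87 in controls (difference 0.88, exact permutation p = 0.3), and the difference was 0.47 without control replicate 1. The other 4 differences were 0.73 for Pkp2 over Jup, 0.44 for Pkp2 over Cdh2, −0.12 for Dsg2 over Dsc2 and −0.16 for Xirp1 over Xirp2, each with an exact permutation p of at least 0.7. All 4 took the other sign without control replicate 1, at −0.32, −0.21, 0.37 and 0.41.

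**Figure D5:**
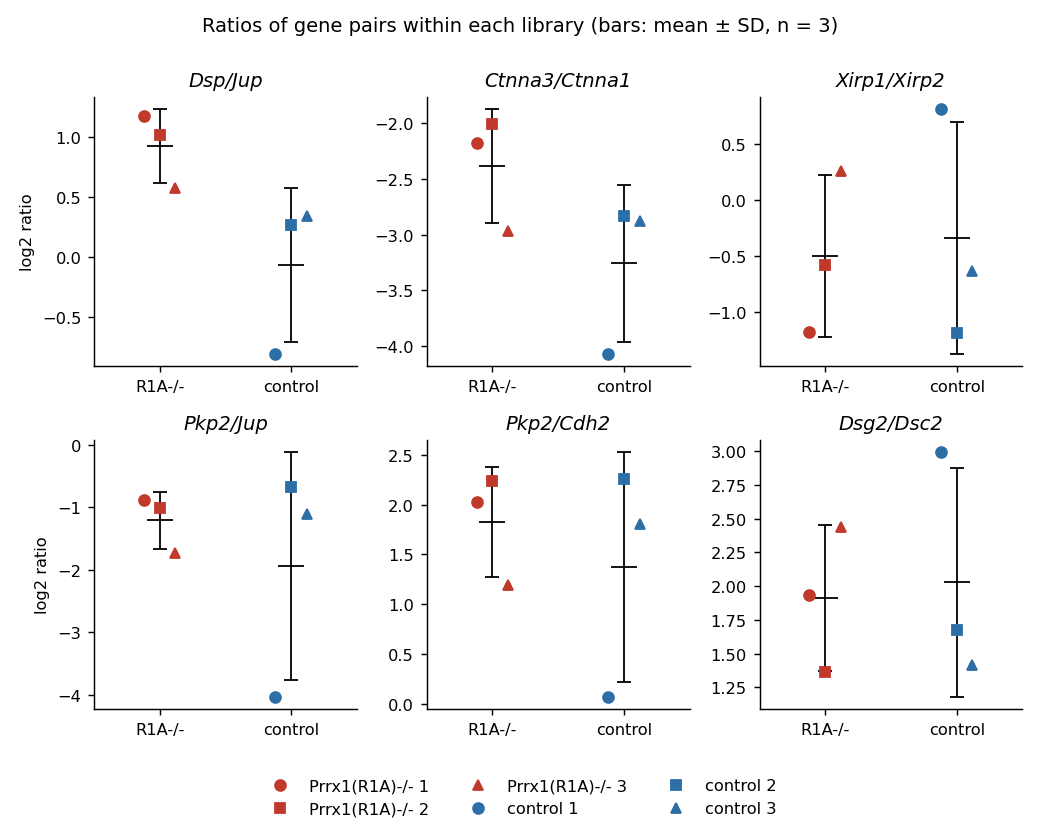
Log2 ratio of 6 pairs of genes within each library (vertical axes), for Prrx1(R1A)-/- (red) and control libraries (blue) with mean and SD in black. Dsp over Jup is the pair whose groups do not overlap (0.58 to 1.18 against −0.81 to 0.34), and control 1 (blue circle) lies farthest from the other controls in all 6 panels.

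Per kilobase of exon the Xin genes had the highest medians of the members in both groups. In Prrx1(R1A)-/- nuclei the median level in normalized counts per kilobase was 1638 for Xirp2 and 1484 for Xirp1, followed by Dsp (401.5), Ctnna1 (387), Jup (344), Pkp2 (177), Dsg2 (105), Ctnna3 (76.7), Dsc2 (43.0) and Cdh2 (36.1). In control nuclei the order was Xirp1 (668), Xirp2 (561), Ctnna1 (293), Jup (270.1), Dsp (173), Pkp2 (151), Dsg2 (75.4), Ctnna3 (36.5), Dsc2 (35.3) and Cdh2 (22.1). The 3 lowest ranks were held by the same genes in both groups, and Dsp stood above Ctnna1 and Jup in Prrx1(R1A)-/- nuclei and below them in controls. The ranges over libraries of neighbours in this order overlapped in both groups for Xirp1 and Xirp2, Ctnna3 and Dsc2, and Dsc2 and Cdh2. In Prrx1(R1A)-/- nuclei those of Dsp and Ctnna1 and of Dsg2 and Ctnna3 overlapped too. In controls so did those of Xirp2 (126 to 742) and Ctnna1 (239.5 to 344), of Ctnna1 and Jup, of Jup and Dsp, and of Pkp2 and Dsg2. Pkp2 lay below its upper neighbour without overlap in both groups. So did Dsp, Jup and Dsg2 in Prrx1(R1A)-/- nuclei and Ctnna3 in controls. Exon lengths are those of GENCODE M21, and the sources used here do not give how reads from introns, which nuclear RNA holds, were counted.

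The other genes of these structures did not pass over all genes by limma either. Over all genes tested, 49.7% lay above 0 and 6.67% were higher at an unadjusted p under 0.05 by limma. Of 15 further desmosome genes, 8 were tested, of which 5 lay above 0 (median log2 fold change 0.24), and 1 was higher at an unadjusted p under 0.05. This was Des, the desmin that desmoplakin anchors, with 4350, 4014 and 3326 normalized counts in Prrx1(R1A)-/- nuclei against 755, 1598 and 2079 in controls (1.51 ± 0.32; adjusted p = 0.128 by limma). The next were the epithelial desmosome protein gene Perp (−0.59 ± 0.43, and −1.07 without control replicate 1) and Dsg3 (1.30 ± 1.00, and 0.21 without that library, at most 54.3 counts). Of 19 further adherens junction genes, 16 were tested, with 11 above 0 (median 0.15) and 2 higher at an unadjusted p under 0.05. Plekha7, which ties junctions to microtubules, had 801, 1043 and 626 against 425, 235 and 485 (1.14 ± 0.30; adjusted p = 0.207), and the cadherin Cdh13 had 0.67 ± 0.29, which was 0.33 without control replicate 1. The mesenchymal cadherin Cdh11 had −0.51 ± 0.25.

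All 24 Xin partners and linker genes of the disc were tested, with 21 above 0 (median 0.57) and 14 higher at an unadjusted p under 0.05, against 6.67% of all genes. The groups were apart upward for 10 of the 24, against 8.89% of all genes. Filamin C (Flnc), an actin crosslinker that binds Xin proteins, had 12217, 16689 and 7162 normalized counts in Prrx1(R1A)-/- nuclei against 2481, 3907 and 4165 in controls (1.73 ± 0.32; adjusted p = 0.094 by limma). Csrp3, a muscle LIM protein, had 1.09 ± 0.25 and the Z-disc crosslinker Actn2 1.42 ± 0.34. Without control replicate 1 limma called 7 of the 24 higher, 1 of the 8 desmosome genes (Des) and 1 of the 16 adherens junction genes (Plekha7), against 6.1% of all genes called higher. Of the 15 cardiomyocyte markers, 14 lay above 0 (median 0.99) and 9 were higher at an unadjusted p under 0.05 by limma. Their groups were apart upward for 8, and without control replicate 1 limma called 7 of them higher. Several of the 24 linker genes also belong to the sarcomere, which shares them with the disc.

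Genes with the profile most like a member over the 6 libraries were taken from 8137 genes with a mean of at least 100 normalized counts, as a description with Pearson r and no test, since the best of so many genes over 6 points is high by selection. For Dsp they were Nup214 (r = 0.997), Rhobtb1 (0.994) and Afg3l2 (0.992), and for Xirp1 Cand2 (0.991), Tacc2 (0.990) and Myo18b (0.987). For Ctnna3 they included Myom2 (0.994) and Ank3 (0.993), and for Xirp2 Usp28 (0.996), Nrap (0.995) and Rgs6 (0.994). Pkp2 was followed by Acadl (0.996), Ryr3 (0.993) and Colgalt1 (0.993), and Dsc2 by Pde4d (0.998), Atad3a (0.995) and Pbdc1 (0.990). Jup was closest to Sipa1l3 (0.994), Apc2 (0.994) and Sall1 (0.993), Dsg2 to Pcdh15 (0.990), Fads2 (0.986) and Ctif (0.985), Cdh2 to Kremen1 (0.990), Mapre3 (0.981) and Clptm1 (0.974), and Ctnna1 to Pfkm (0.995), Serpinb6b (0.992) and Dcaf15 (0.986). None of these genes was itself a member.

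The authors' deposited table of 1900 genes listed 3 of the 10 members, all higher in Prrx1(R1A)-/- nuclei. In it Xirp1 had a log2 fold change of 1.31 (adjusted p = 0.00039) and Dsp 1.03 (adjusted p = 0.0023), while Ctnna3 had 0.91 (adjusted p = 0.13), all values of the authors' deposited table. Of the 1900 genes listed there, 227 had an adjusted p under 0.05. The values come from the same 6 libraries and are no independent support.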

How the data were processed

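Nuclear RNA of PCM1-sorted atrial nuclei was sequenced in 6 libraries. Per the submitters' processing notes the authors used STAR, DESeq2 and the build mm10. The sources used here give neither versions nor how reads were assigned to genes. The deposited signal values are normalized counts per gene, per the file headers, and all but 1 of the 157992 are whole multiples of 1 step per library (tolerance 0.01 reads), so reads were recovered. The authors' deposited comparison table gives a mean signal, a log2 fold change, its standard error and a Wald score, p-values before and after adjustment, and −log10 of the adjusted ones. A further 847 entries without a gene identifier were left out.

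Genes with at least 10 normalized counts in at least 3 libraries (14584) were tested with limma-trend 3.58.1 (R 4.3.3) on log2(value + 1), genotype as the single term, two-sided, Benjamini-Hochberg adjusted over all genes, called under 0.05. Fold changes on this scale understate the change of low genes. edgeR 4.0.16 and DESeq2 1.42.0 ran on recovered reads. The log2 ratios of member pairs and the differences from the cardiomyocyte markers used exact permutation over 20 labelings. Depth was 10580961 to 14658584 reads; a count of 0 allows up to 3 reads. Columns were matched to samples by title and number, with the columns headed wt taken as the samples titled control. The members, lists and rules were chosen with earlier results of these data known. All 10 members are named, and of the junction lists the 3 tested genes with the smallest p each, of the cell lists the 2 highest, and the 3 most alike genes per member, of which 1 is not reported here; Lrrtm2, Lrrtm3 and Cx3cr1 were named for their position. Same-numbered libraries did not deviate together (correlations −0.11, −0.02 and −0.09), so numbers were not used as pairs. The fit was checked on simulated data. Positions and exon lengths are GENCODE M21 on GRCm38, the same assembly as mm10. Python 3.11.15 with matplotlib 3.10.9 made the plots.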

Additional observations from a re-analysis of the deposited data

How the results depend on the processing

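Of the single genes, Dsp and Xirp1 stayed above 0 under all 19 alternatives (0.78 to 1.27 and 1.11 to 1.69) and were called under 5 of them, with adjusted p otherwise up to 0.56; Ctnna3 (0.73 to 1.86) and Xirp2 (0.84 to 2.58) were called under 2 and Pkp2 (0.14 to 1.68) under 1. Ctnna1 (0.04 to 0.52), Cdh2 (0.08 to 0.61) and Dsc2 (0.01 to 0.73) stayed above 0 and were never called, each lowest without ribosomal and mitochondrial genes or, for Dsc2, without control replicate 1. Jup was below 0 with quantile scaling (−0.031), with the ribosomal RNA covariate (−0.19) and without ribosomal and mitochondrial genes (−0.21), and ranged from −0.10 to 0.45 when single libraries were left out; Dsg2 was at −0.10 without ribosomal and mitochondrial genes. The members called were 2 with DESeq2, 2 with library quality weights, 5 with the ribosomal RNA covariate and 4 without control replicate 1 and Prrx1(R1A)-/- replicate 3 together, and 0 to 2 when single libraries were left out. The members' median was 0.32 with weights, 0.97 with the covariate and 0.30 without ribosomal and mitochondrial genes. That removal moved the median of all genes to −0.35, from −0.0036 in the main fit. The values of single genes after that removal are on the same shifted scale. Over all genes, 2 were called, against 244 with DESeq2, 1521 with weights, 436 with the covariate and 1478 without both libraries, 0 with edgeR (1753 at an unadjusted p under 0.05), quantile scaling, the replicate block or removal of ribosomal and mitochondrial genes, and 0 to 1312 when single libraries were left out, the 1312 without control replicate 1. The replicate block changed no call on a member. When single libraries were left out, the difference in log2 ratio ran from −0.59 to 0.41 for Xirp1 over Xirp2, −0.42 to 0.37 for Dsg2 over Dsc2, −0.32 to 1.36 for Pkp2 over Jup and −0.21 to 0.88 for Pkp2 over Cdh2, and that of Pkp2 from the cardiomyocyte markers from −0.50 to 0.34. The causes were not tested. With 3 libraries per group the exact tests cannot go below 0.1.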

Other observations

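Among genes of the desmosome list, the plakin Ppl, which binds intermediate filaments in epithelia, had 6136, 5548 and 7419 normalized counts in Prrx1(R1A)-/- nuclei against 8887, 4041 and 4698 in controls, and the related Evpl 224, 176 and 466 against 708, 131 and 202. Both were highest in control replicate 1, as Jup was, and second highest in Prrx1(R1A)-/- replicate 3. They were picked after their values were seen. The beta-catenin gene Ctnnb1, whose protein binds N-cadherin, had 606, 721 and 774 in Prrx1(R1A)-/- nuclei against 673, 949.7 and 851 in controls, and the actin linker vinculin (Vcl) 1660.0, 1898 and 1340.2 against 637, 1373 and 1577, neither with an unadjusted p under 0.05 by limma.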
